A study of Mus musculus with 14 samples.

Results

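Complement components and complement receptors were followed as 9 genes, C1qa, C1qb, C1qc, C3, C4b, C3ar1, C5ar1, Itgam and Itgb2, taken by their symbols from the 14329 genes measured by bulk RNA-seq in microglia of the dorsal lumbar spinal cord. The microglia were sorted as CD45low CD11b+ CX3CR1+ cells, and the study's gating also required them to be negative for Ly6C and CCR2. Each library was made from 2000 cells, taken at day 5 after serum transfer (ST) from mice 6 months of age. There were 3 libraries of WT Control ST, 4 of WT K/BxN ST, 3 of TASTPM Control ST and 4 of TASTPM K/BxN ST. WT mice were C57BL/6 without transgene. TASTPM mice, a model of Alzheimer's disease on the same background, carried heterozygous human transgenes, among them APP with the Swedish mutation, under the murine Thy-1 promoter, which is active mainly in neurons. K/BxN serum comes from mice with spontaneous arthritis and passes joint inflammation on to the recipient, whereas Control ST mice received serum from mice that do not develop arthritis. Male and female mice were used, and the sex behind each library was not used here. TASTPM K/BxN ST libraries 1 to 4 carry the numbers of their labels, and the libraries of the other groups are numbered in the order of the deposited values. The study's methods take individual mice as the replicates, although the labels do not tie a library to a mouse, and the p-values below measure the spread between libraries.

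Complement is a cascade of plasma and tissue proteins that tags targets for removal and recruits immune cells. C1q, built from the C1qa, C1qb and C1qc chains, recognises the target and starts the classical pathway, in which C4 and then C3 are cleaved and deposited. The small fragments C3a and C5a signal through C3AR1 and C5AR1, while deposited C3 fragments are bound by complement receptor 3, the integrin formed by CD11b (Itgam) and CD18 (Itgb2). In the central nervous system microglia are the main source of C1q, and complement receptor 3 on microglia takes part in the removal of tagged synapses.

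On the GRCm39 genome the C1q genes lie side by side on chromosome 4, all on the minus strand, with C1qb at 136606009 to 136613511, C1qc at 136616466 to 136620376 and C1qa at 136623223 to 136626161. C3 (57510964 to 57535155) and C4b (34947354 to 34962912) are on chromosome 17 and C3ar1 is on chromosome 6 (122823393 to 122833122), all on the minus strand. On chromosome 7, C5ar1 spans 15980668 to 15993465 on the minus strand and Itgam spans 127661808 to 127717753 on the plus strand. Itgb2 is on chromosome 10 (77366086 to 77401542), on the plus strand. Values are reads per gene, so they fall mainly on exons. Itgam shares 3450 exon bases with the same-strand gene model Gm49368, which was not analysed here, and its reads cannot be told from that model's. Gene models on the opposite strand, also not analysed here, share 61 exon bases with C1qb, 247 with C1qc, 334 with C3 and 366 with C4b, and since the kits do not mark strand their reads cannot be told apart there either. C4b has a close paralog, C4a, which was not analysed here, and the C4b values are uncertain to that extent.

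The promoters of C1qb and C1qc are shown because their ratio was the steadiest of any pair of members across libraries, and that of C3 because C3 had the widest range. They run from 250 bases before to 50 bases after the start of the gene, 5′ to 3′ on the strand of the gene, from RefSeq on GRCm38.p6, a different build from that of the gene positions above. Promoters were matched for 6 of the 9 members. Capitals mark AGGAAGT, a site of the PU.1 class of ETS factors, or its reverse complement ACTTCCT, and in C3 a match to TTGCNNAA, the core of a C/EBP site. The matches do not overlap each other.
C1qb (chr4:136886151-136886450, minus strand): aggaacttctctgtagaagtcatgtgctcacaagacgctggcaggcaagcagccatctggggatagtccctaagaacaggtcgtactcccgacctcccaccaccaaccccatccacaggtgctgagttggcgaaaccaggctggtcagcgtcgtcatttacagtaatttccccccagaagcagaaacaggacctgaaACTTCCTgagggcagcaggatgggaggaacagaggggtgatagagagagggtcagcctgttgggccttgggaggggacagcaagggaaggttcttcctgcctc
C1qc (chr4:136892865-136893164, minus strand): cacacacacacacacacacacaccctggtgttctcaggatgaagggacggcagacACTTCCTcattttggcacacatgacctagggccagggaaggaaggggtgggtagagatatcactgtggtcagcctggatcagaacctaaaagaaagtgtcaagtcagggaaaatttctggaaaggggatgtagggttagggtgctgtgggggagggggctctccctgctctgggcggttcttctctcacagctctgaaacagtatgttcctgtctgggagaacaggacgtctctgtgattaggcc
C3 (chr17:57228087-57228386, minus strand): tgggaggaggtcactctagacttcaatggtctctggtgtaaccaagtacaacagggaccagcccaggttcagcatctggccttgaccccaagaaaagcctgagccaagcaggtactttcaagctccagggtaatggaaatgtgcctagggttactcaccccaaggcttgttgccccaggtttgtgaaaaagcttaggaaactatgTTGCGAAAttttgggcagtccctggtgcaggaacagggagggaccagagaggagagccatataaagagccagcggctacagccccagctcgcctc
AGGAAGT on either strand lay 53 to 47 bases before the start in C1qb and 195 to 189 bases before it in C1qc, and at 2 places in C5ar1. It was in 9.35% of the 32851 promoters of the same length. TTGCNNAA was found among the 6 members only in C3, 45 to 38 bases before the start, against 10.8% of all promoters. The motifs were chosen after the sequences were seen, and a match is a description of letters and not of binding.

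Reads on genes numbered 14223015 to 20239175 per library. Microglia markers were present in every library, with 10 of 10 listed genes measured, and took 1.55% to 5.89% of reads. In 4 libraries, TASTPM K/BxN ST 1 and 2 and WT K/BxN ST 1 and 2, the 19 neutrophil and monocyte markers together took 2.29%, 1.97%, 2.22% and 0.546% of reads, while they took 0.00148% to 0.0178% in the other 10. Ly6c2 and Ccr2, genes of proteins that the gating excluded, were at 12898 to 29133 and 8537 to 27035 normalized counts in these 4. In the other 10 they did not exceed 17.8 and 86.0. In those 10 libraries 5 of the 19 markers, among them Cxcr2 and Vcan, stayed below 10 normalized counts. Ms4a4c was at 114 to 413 in the 10, and S100a8, S100a9, Retnlg and Ltf reached 969, 1525, 252 and 100.3 in single libraries. The 4 libraries first named were all high in monocyte markers (0.524% to 1.06%). WT K/BxN ST 2 held few neutrophil reads (0.0219%), against 1.23% to 1.36% in the other 3. Microglia markers took 1.55% to 3.69% of reads in these 4 libraries and 4.56% to 5.89% in the rest. Markers of border-associated macrophages took 0.00901% to 0.0255% of reads in these 4 and 0% to 0.00576% in the rest, and those of dendritic cells 0.00462% to 0.0467% against 4.94e-06% to 0.00134%. WT Control ST 3 stood apart in red cell markers, with 0.242% of reads against at most 0.0276% in the other 13 libraries, and had the largest neutrophil share of the Control ST libraries (0.0162%). Without it the WT serum log2 fold changes of the 9 genes other than C3 and C4b, both described below, ran from -0.58 for C1qb to -0.000645 for Itgb2, which was the only one of these 7 to change sign. The serum fold changes of the 9 genes are given with and without the 4 libraries, and the part of these reads in the results was not tested. In bulk samples fewer cells of a type and less RNA per cell cannot be told apart.

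C1q was among the most abundant products of these cells. By mean normalized count, the read count divided by a size factor for the library, C1qc ranked 7, C1qb 9 and C1qa 19 among the 14329 genes. The 9 genes together took 1.12% of reads in TASTPM K/BxN ST 1, with a 95% Wilson interval of 1.11% to 1.12%, up to 3.16% in TASTPM Control ST 2, with an interval of 3.15% to 3.17%. These intervals cover counting error only.

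Per kb of the canonical transcript, the median level over the 14 libraries was 89830 normalized counts for C1qa, 82803 for C1qc and 55775 for C1qb. The integrin chain Itgb2 followed at 6433, then the anaphylatoxin receptors C5ar1 at 3569 and C3ar1 at 2523, and the integrin chain Itgam at 1448. C4b and C3 stood far below, at 52.8 and 10.2. Neighbours kept this order in 13 or 14 of the 14 libraries except for C4b over C3, which held in 10. The order among the C1q chains depended on the length used, since per kb of coding sequence it was C1qc, C1qb and C1qa, and C3ar1 and C5ar1 then passed Itgb2.

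**Figure D1:**
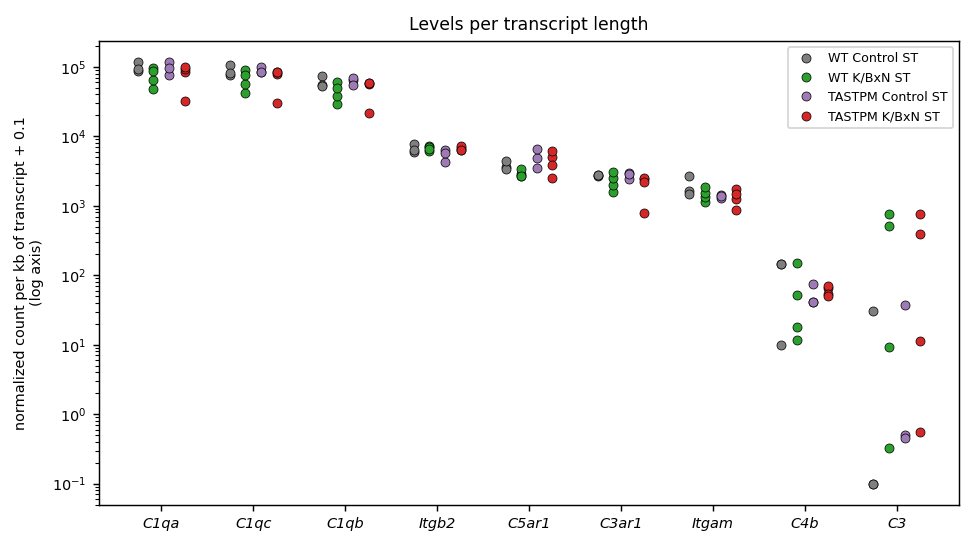
Normalized count per kb of canonical transcript, plus 0.1, on a log axis, for the 9 genes in order of their median, with 1 point per library coloured by group. The C1q chains lie highest, the integrin chains and anaphylatoxin receptors lie in the middle, and C3 spreads from 0 to 757 per kb.

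None of the 9 genes was called in any comparison. Called means an adjusted p below 0.05 (limma, Benjamini-Hochberg over 12645 genes) with an absolute log2 fold change above 1, and all 9 genes passed the filter on low counts. The background was as sparse, with 0.00791% of genes called for the serum comparison in WT and 0% in each of the other 6 comparisons. At an unadjusted p below 0.05, 0 of 9 members passed in WT against 7.13% of all genes, and 0 of 9 in TASTPM against 4.22%. Averaged over genotypes 1 of 9 passed (C3), against 9.25% of all genes, and for TASTPM over WT averaged over sera 1 of 9 passed (C5ar1), against 4.68%. With edgeR and DESeq2 on the recovered reads 0 of 9 were called as well, where edgeR called 0% of all genes in each comparison. DESeq2 called 1.01% of all genes for serum in WT, 0.127% for serum in TASTPM, 1.42% for the average over genotypes, 0.095% for the interaction, 0.325% for genotype in Control ST, 0% for genotype in K/BxN ST and 0.0871% for the average over sera. Between the genotypes 0 of 9 members had an unadjusted p below 0.05 in Control ST, against 5.57% of all genes, and 0 of 9 in K/BxN ST, against 1.91%.

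**Figure D2:**
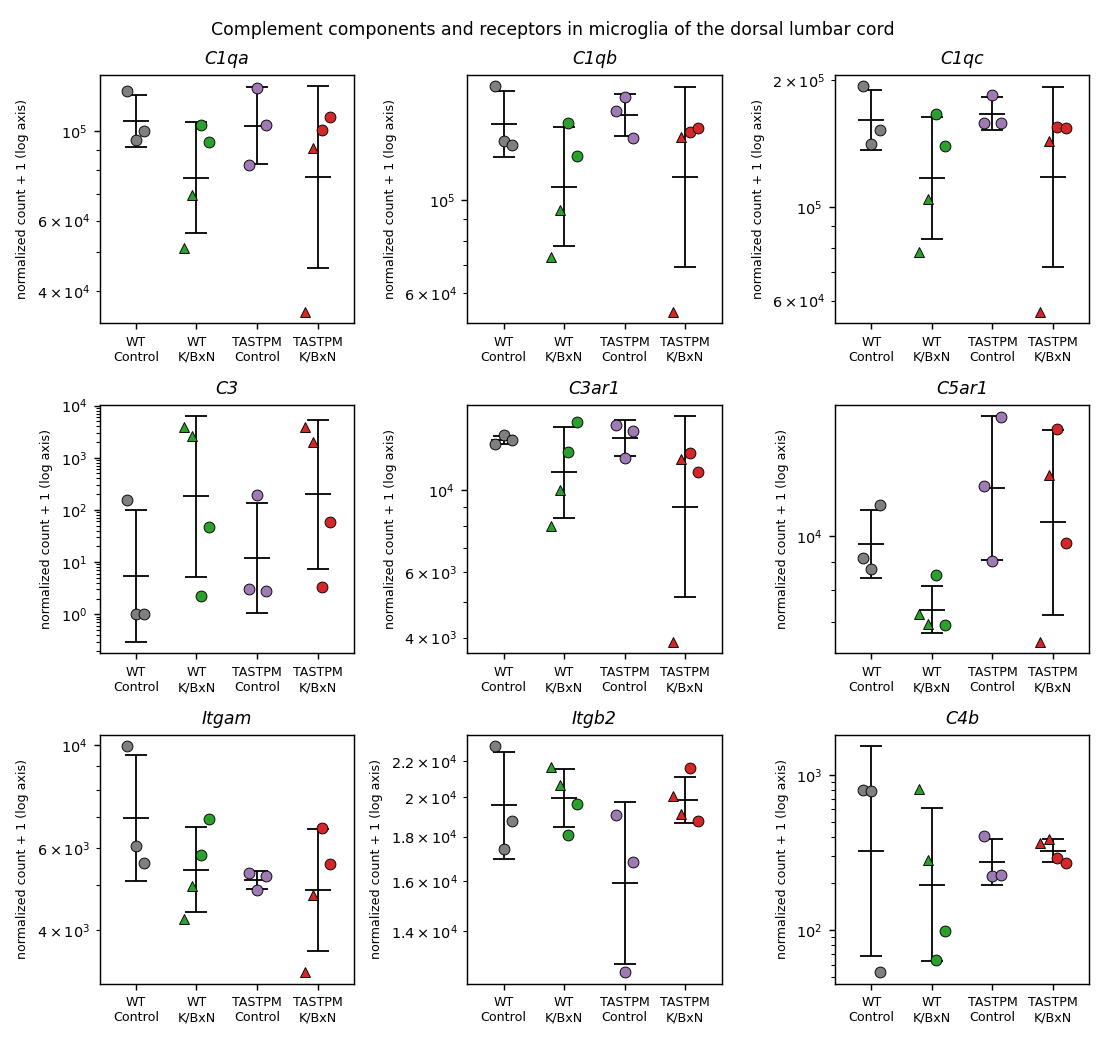
Normalized count plus 1 on a log axis for the 9 genes, 1 point per library in the 4 groups, with the mean and SD of the log2 values. Triangles mark the 4 libraries high in neutrophil and monocyte reads, which are the lowest K/BxN ST points for C1qb and C1qc in each genotype and the highest for C3.

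The C1q chains, which form the recognition unit of the classical pathway, had lower mean levels after K/BxN ST in both genotypes, but the spread within the K/BxN ST groups was wide. C1qc, in normalized counts, was 193760, 141176 and 152534 in WT Control ST, with 78099, 104343, 166467 and 139867 in WT K/BxN ST. In TASTPM it was 158334, 184379 and 157910 in Control ST and 56379, 143622, 154620 and 154169 in K/BxN ST. The WT groups overlapped, while all 4 TASTPM K/BxN ST libraries lay below all 3 TASTPM Control ST libraries, by a small margin for 2 of them. Such a separation was seen for 2.74% of all genes, and the exact two-sided permutation test on log2 values gave p = 0.314. TASTPM K/BxN ST 1 lay far below the other 3 libraries of its group.

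C1qb was similar, except that its TASTPM groups overlapped. It was 187784, 138431 and 135267 in WT Control ST, with 73074, 94723, 153088 and 127513 in WT K/BxN ST. TASTPM libraries held 163883, 176676 and 140782 in Control ST and 54090, 141662, 145786 and 149014 in K/BxN ST. The groups overlapped in both genotypes, with WT K/BxN ST 1 and 2 and TASTPM K/BxN ST 1 at the bottom.

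C1qa, the remaining chain, was 125771, 95336 and 99954 in WT Control ST, with 51267, 69282, 103677 and 94156 in WT K/BxN ST. In TASTPM it was 82590, 128245 and 103594 in Control ST and 35572, 90939, 100803 and 108253 in K/BxN ST. The groups again overlapped, and the same 3 libraries were the lowest of the 14.

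Expressed as log2 fold changes of K/BxN ST over Control ST, the C1q chains gave -0.47 (SE 0.37), -0.50 (SE 0.37) and -0.46 (SE 0.37) for C1qa, C1qb and C1qc in WT, and -0.42, -0.49 and -0.50 in TASTPM, with unadjusted limma p of 0.201 to 0.280 across both genotypes. Without the 4 libraries high in neutrophil and monocyte reads the values shrank to -0.10, -0.12 and -0.077 in WT and to 0.018, -0.12 and -0.11 in TASTPM. In TASTPM 1 library carried most of the difference, since C1qa, C1qb and C1qc were at -0.048, -0.14 and -0.14 without TASTPM K/BxN ST 1, and C1qa was at -0.26 without TASTPM Control ST 2. In WT they were at -0.28, -0.31 and -0.26 without WT K/BxN ST 1. The microglia markers were lower with C1q, with a median log2 fold change of -0.50 in WT and -0.55 in TASTPM, negative for 10 of 10 genes in each. Measured against the mean log2 level of the microglia markers, mean log2 C1q was 1.02 to 1.85 higher in every library, and of the 4 libraries (1.61, 1.85, 1.35 and 1.22) TASTPM K/BxN ST 2 alone lay outside the range of the other 10 (1.02 to 1.66), above it.

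**Figure D3:**
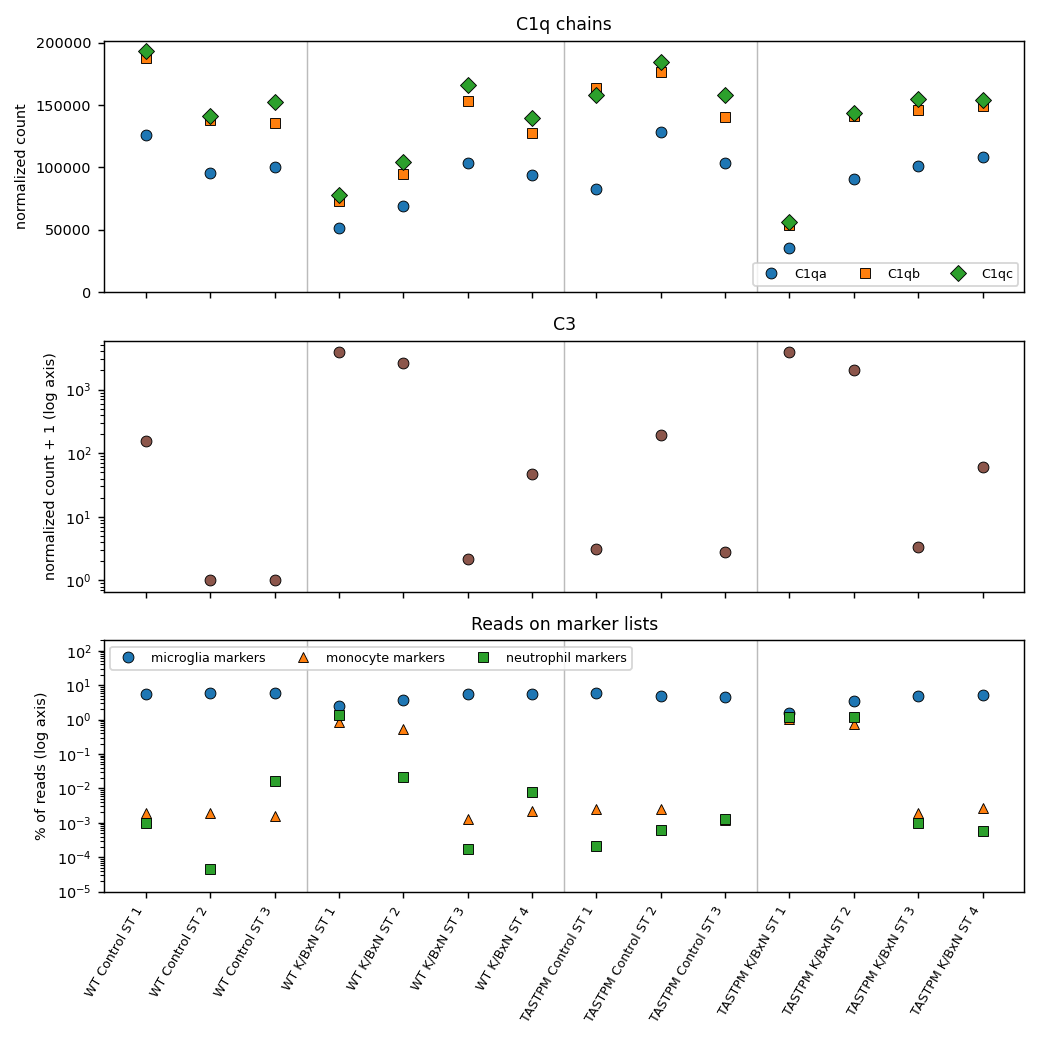
By library, the normalized counts of the C1q chains (top, linear axis from 0), the normalized count of C3 plus 1 (middle, log axis) and the percent of reads on microglia, monocyte and neutrophil markers (bottom, log axis). WT K/BxN ST 1 and 2 and TASTPM K/BxN ST 1 and 2 hold the most monocyte reads and the most C3, and 3 of them hold the least C1q.

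The C1q chains kept nearly fixed proportions while their levels moved 3.44-fold to 3.61-fold between the highest and lowest library. The ratio of C1qb to C1qc ranged from 0.887 to 1.04, with an SD of its log2 value of 0.062 over the 14 libraries, and that of C1qa to C1qb from 0.504 to 0.739, with an SD of 0.14. The gene most like C1qa and C1qb by this SD was C1qc, and that most like C1qc was C1qb (12645 genes compared over 14 libraries). The next for C1qb was Ctsl, a lysosomal protease, with an SD of 0.13, while the median gene had an SD of 0.82. These libraries share their tissue and cell sort, and the likeness is a description.

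C3, the central component on which all activation routes converge, was the member with the widest range. In normalized counts it was 156, 0 and 0 in WT Control ST, with 3899, 2607, 1.19 and 46.9 in WT K/BxN ST. In TASTPM it was 2.09, 193 and 1.82 in Control ST and 3904, 2031, 2.35 and 58.7 in K/BxN ST. C3 exceeded 2000 in 2 of 4 K/BxN ST libraries of each genotype, the same 4 libraries that were high in monocyte reads, and the other 4 K/BxN ST libraries were at 1.19 to 58.7, below the highest Control ST library. The part of monocytes or neutrophils in this was not tested.

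The log2 fold change of C3 for K/BxN ST over Control ST was 5.07 (SE 2.91, 95% interval -1.15 to 11.3) in WT and 4.07 (SE 2.91) in TASTPM. Averaged over genotypes it was 4.57 (SE 2.06) with an unadjusted p of 0.0427 and an adjusted p of 0.536 by limma, and the exact permutation test gave p = 0.0841. Without the 4 libraries it was 0.93 (SE 2.71) in WT and 0.25 (SE 2.71) in TASTPM. With 1 library left out the WT value ran from 3.59 without WT K/BxN ST 1 to 7.5 without WT Control ST 1, with an unadjusted limma p from 0.0219 to 0.270. The TASTPM value ran from 2.64 without TASTPM K/BxN ST 1 to 6.08 without TASTPM Control ST 2, and the average from 3.83 to 5.78. With a pseudocount of 10 in place of 1 the values were 3.48 in WT, 3.22 in TASTPM and 3.35 for the average. In the 2 libraries at 0 reads a count of 0 allows up to 3 reads. The genes most like C3 by the SD of the log2 ratio were Flt3 (SD 2.21), a receptor of dendritic cells and progenitors, and Ly6i (SD 2.24), against 4.70 for the median gene.

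C4b, the component cleaved after C1q binding, was expressed at a low and uneven level. It was 794, 786 and 52.5 in WT Control ST, with 810, 282, 63.3 and 98.1 in WT K/BxN ST. TASTPM libraries held 403, 222 and 225 in Control ST and 361, 384, 293 and 271 in K/BxN ST. The groups overlapped throughout, and the 7 WT libraries covered a 15.4-fold range that contained all 7 TASTPM libraries. Its log2 fold change was -0.72 (SE 0.90) in WT and 0.25 (SE 0.90) in TASTPM, and without the 4 libraries it was -2.01 (SE 0.99) and 0.048, neither of them called by limma. WT K/BxN ST 1, which is among the 4, was the highest library of all for C4b. The WT value rested on single libraries, being -0.070 without WT Control ST 1, -0.077 without WT Control ST 2, -0.19 without WT K/BxN ST 3, -0.39 without WT K/BxN ST 4, -1.41 without WT K/BxN ST 1 and -2.02 without WT Control ST 3, the library high in red cell reads, where the unadjusted limma p was 0.0183 and the adjusted p 0.458. The part of red cells in this was not tested. In TASTPM it ran from 0.10 to 0.53 with 1 library left out.

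C5ar1, the receptor of C5a, was the member with the lowest p between genotypes in K/BxN ST and in the average over sera, though not in Control ST, where Itgam had the lowest (0.132, limma, unadjusted). In normalized counts it was 9117, 8726 and 11394 in WT Control ST, with 7237, 6928, 8508 and 6904 in WT K/BxN ST. In TASTPM it was 12301, 9028 and 16415 in Control ST and 6436, 12881, 15599 and 9720 in K/BxN ST. Of the TASTPM K/BxN ST libraries, 3 lay above all WT K/BxN ST libraries and 1 lay below all of them.

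The log2 fold change of C5ar1 for TASTPM over WT, averaged over sera, was 0.43 (SE 0.19), with an unadjusted p of 0.0426 and an adjusted p of 0.9998 by limma, and the exact permutation test gave p = 0.0471. It was 0.34 (SE 0.29) in Control ST and 0.52 (SE 0.25) in K/BxN ST. Without the 4 libraries the K/BxN ST value was 0.68 (SE 0.29) and the average 0.51 (SE 0.19), neither of them called by limma. With 1 library left out the average ran from 0.32 without TASTPM Control ST 3 to 0.55 without TASTPM K/BxN ST 1. The Control ST value was 0.12 without TASTPM Control ST 3 and 0.55 without TASTPM Control ST 2, and the K/BxN ST value was 0.34 without TASTPM K/BxN ST 3. In the averaged comparison the cell type markers that passed the filter, none of them called, had a median log2 fold change of 2.03 for border-associated macrophages (4 of 4 genes positive), 1.48 for neutrophils (3 of 4 positive), 0.24 for monocytes (3 of 5 positive) and -0.26 for microglia (10 of 10 negative). Their part in the C5ar1 values was not tested. For serum, all 4 WT K/BxN ST libraries lay below all 3 WT Control ST libraries, a separation shown by 3.71% of all genes, with a log2 fold change of -0.39 (SE 0.27, exact permutation p = 0.0571, where the smallest possible is 0.0286). In TASTPM the groups overlapped, with -0.21 (SE 0.27). Without the 4 libraries the serum values were -0.34 in WT and 0.011 in TASTPM, where the sign turned. The TASTPM value also turned without TASTPM K/BxN ST 1 (0.033) or TASTPM Control ST 3 (0.0068), and was -0.42 without TASTPM Control ST 2. The difference between genotypes in the serum effect, 0.19 (SE 0.39), had an unadjusted limma p of 0.636.

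C3ar1, the receptor of C3a, was 13360, 14056 and 13672 in WT Control ST, with 7988, 10018, 12713 and 15286 in WT K/BxN ST. The TASTPM values were 14983, 12183 and 14483 in Control ST and 3887, 12121, 12573 and 11195 in K/BxN ST. WT Control ST was tight, with an SD of 348 around a mean of 13696, while the K/BxN ST libraries scattered to both sides of it in WT. The log2 fold change was -0.29 (SE 0.34) in WT and -0.62 (SE 0.34) in TASTPM, and without the 4 libraries it was -0.22 in TASTPM and turned to 0.026 in WT. The TASTPM value was -0.21 when TASTPM K/BxN ST 1 alone was left out, and the WT value was -0.13 without WT K/BxN ST 1 and -0.45 without WT K/BxN ST 4. C3ar1 and C5ar1 did not keep fixed proportions, since their ratio ran from 0.604 to 2.21.

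Itgam encodes CD11b, a protein by which the cells were sorted, so its presence is given by the design. Its normalized counts were 9929, 6077 and 5588 in WT Control ST, with 4233, 4981, 5786 and 6919 in WT K/BxN ST. In TASTPM they were 5296, 4873 and 5215 in Control ST and 3246, 4751, 6619 and 5546 in K/BxN ST. All 3 TASTPM Control ST libraries lay below all 3 WT Control ST libraries, as did 4.71% of all genes, with a log2 fold change of -0.44 (SE 0.28). The exact permutation test gave p = 0.1, the smallest that 3 against 3 allows. The size of the difference rested on WT Control ST 1, and without it the value was -0.19. The serum log2 fold change of Itgam was -0.37 (SE 0.26) in WT and -0.071 (SE 0.26) in TASTPM, and without the 4 libraries it was -0.14 in WT and turned to 0.24 in TASTPM. Leaving out WT Control ST 1 alone gave -0.11 in WT, and leaving out 1 TASTPM library gave -0.22 to 0.12 in TASTPM.

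Itgb2, the partner chain of CD11b and of other leukocyte integrins, varied least, with 1.83-fold between its highest and lowest library. It was 22905, 17418 and 18758 in WT Control ST, with 21661, 20655, 18088 and 19632 in WT K/BxN ST. The TASTPM values were 19087, 12537 and 16820 in Control ST and 20036, 19127, 21592 and 18775 in K/BxN ST. In TASTPM, 3 of 4 K/BxN ST libraries were above all Control ST libraries, with a log2 fold change of 0.32 (SE 0.18, exact permutation p = 0.0571), which was 0.34 without the 4 libraries, and in WT it was 0.030 (SE 0.18) and turned to -0.054 without them. The TASTPM value was 0.15 without TASTPM Control ST 2, the lowest library of all, and 0.45 without TASTPM Control ST 1. The ratio of Itgb2 to Itgam was highest in the 4 libraries high in neutrophil and monocyte reads, at 6.17 and 4.03 in those of TASTPM and 5.12 and 4.15 in those of WT. In the other 10 libraries it was lower, from 2.31 to 3.6.

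**Figure D4:**
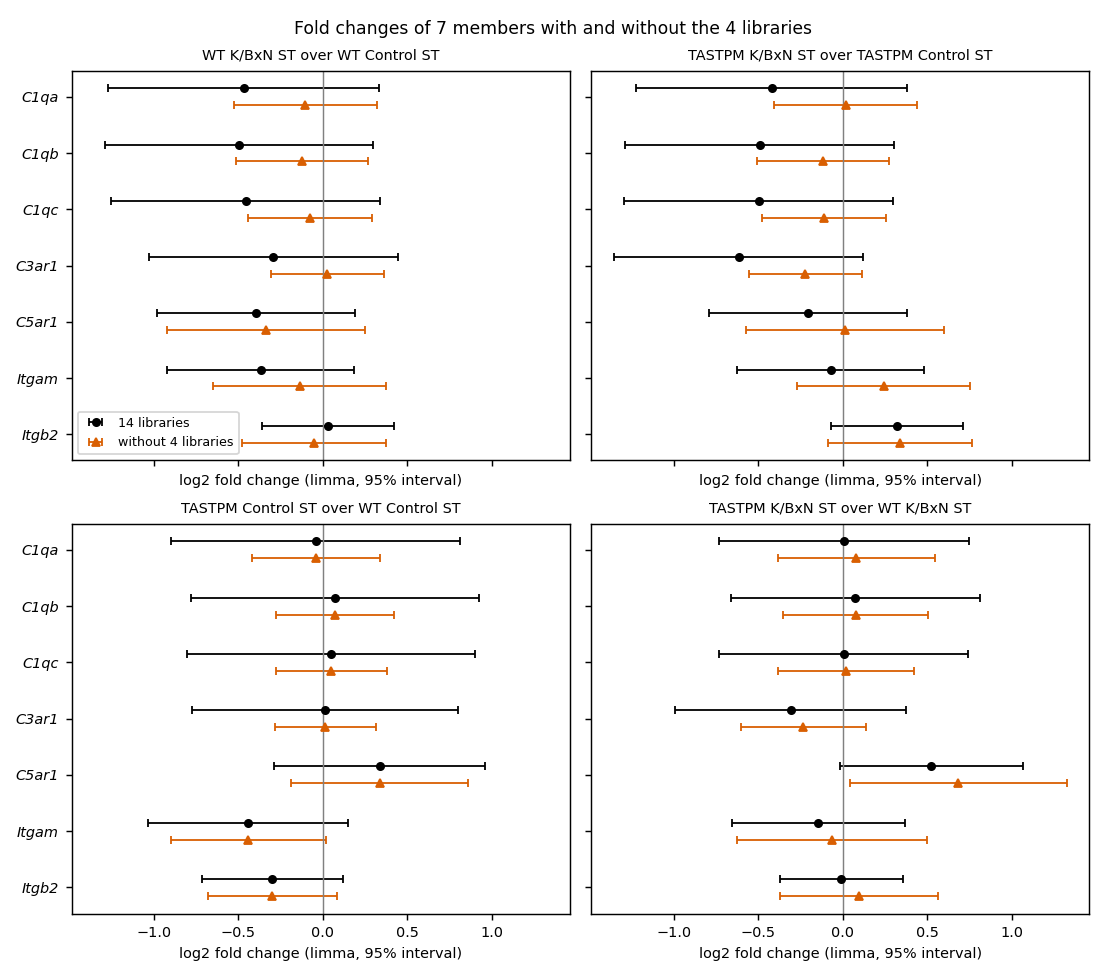
Log2 fold change with 95% interval (limma) for 7 of the 9 genes in 4 comparisons, with all 14 libraries (black circles) and without the 4 libraries high in neutrophil and monocyte reads (orange triangles). C3 and C4b, whose intervals are far wider, are not drawn. The C1q chains lie nearer 0 without the 4 libraries in both serum comparisons. C5ar1 lies to the right of 0 in TASTPM over WT, with intervals that include 0 except in K/BxN ST without the 4 libraries. The fold changes of TASTPM Control ST over WT Control ST are the same in both fits, since the 4 libraries are all K/BxN ST.

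Taking the 9 genes as a list, 7 had a negative log2 fold change for K/BxN ST in WT against 46% of all genes. The median was -0.39 against 0.057. In TASTPM 6 were negative against 49.6%, with a median of -0.21 against 0.0056. The 9 are not independent, since the C1q chains moved almost as 1 (SD of their log2 ratios 0.062 to 0.14). The microglia markers were lower in the same comparisons, by the medians of -0.50 and -0.55 given with C1q. Without the 4 libraries high in neutrophil and monocyte reads 7 of 9 members were negative in WT against 46.5% of all genes, with a median of -0.10. In TASTPM the direction of the list turned without them, with 3 of 9 negative against 50.4% of all genes and a median of 0.018. The medians of the microglia markers were then -0.12 in WT and -0.0021 in TASTPM. Between the genotypes the median of the 9 was 0.014 in Control ST and 0.0065 in K/BxN ST, against 0.042 and -0.00087 for all genes. The microglia markers had medians of -0.23 and -0.25 there, negative for 9 of 10 and 10 of 10 genes. For the interaction of genotype and serum, 0 of 9 had an unadjusted limma p below 0.05, with values from 0.280 to 0.994, against 3.04% of all genes. Both serum comparisons use separate control groups, whereas each genotype comparison shares its groups with them.

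Of 52 other listed complement genes, 19 were in the table, 14 passed the filter and 0 were called in either direction in any comparison, with a smallest adjusted p of 0.536 by limma. At an unadjusted limma p below 0.05, 1 of 14 passed for K/BxN ST in WT against 7.13% of all genes, and 0 of 14 in TASTPM against 4.22%. Averaged over genotypes 2 of 14 passed, Calr and Cr1l, against 9.25%. Between the genotypes 1 of 14 passed in Control ST against 5.57%, and 1 of 14 in K/BxN ST against 1.91%. For the average over sera it was 0 of 14 against 4.68%, and for the interaction 1 of 14 against 3.04%. The median log2 fold change of the 14 for K/BxN ST was -0.23 in WT and -0.32 in TASTPM. Without the 4 libraries it turned to 0.11 in WT and was -0.037 in TASTPM. Calr and Cr1l, which are among the 3 with the highest mean level, are described next.

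Calr, a chaperone that also binds C1q at the cell surface, ranged from 12151 to 20222 normalized counts over the 14 libraries, with a log2 fold change of -0.33 (SE 0.16) in WT and -0.21 (SE 0.16) in TASTPM. Averaged over genotypes it was -0.27 (SE 0.11), with an unadjusted p of 0.0320 and an adjusted p of 0.536 by limma. Calr was at -0.26 in WT and -0.19 in TASTPM without the 4 libraries. Cr1l, a membrane regulator that limits C3 activation on mouse cells, ranged from 3504 to 5849, with -0.34 (SE 0.19) in WT and -0.29 (SE 0.19) in TASTPM. Its average was -0.31 (SE 0.13), with an unadjusted p of 0.0352 and an adjusted p of 0.536 by limma. Cr1l was nearer 0 without the 4 libraries, at -0.14 in WT and -0.16 in TASTPM, with an average of -0.15 (SE 0.14).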

How the data were processed

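RNA of 2000 sorted cells per library was amplified by the authors with the SMART-Seq v4 kit and made into libraries with a NEBNext kit. Per the submitters' processing notes, reads were checked with FastQC 0.11.9, aligned with HISAT2 2.1 to GRCm39, counted with featureCounts 1.5.2 and normalized with DESeq2. What the authors deposited is a normalized signal per gene, its reads divided by 1 size factor per library. Whole reads were recovered for 100% of values (tolerance 0.01 read), so the scaling is known. All 14336 entries were read, and 7 repeats of an identifier were left out. The kits do not mark strand.

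The 12645 genes that reached 10 reads in 7 or more of the 14 libraries entered 1 limma fit to the 4 groups (limma 3.58.1, R 4.3.3) on log2(normalized count + 1). The prior variance followed a mean trend and p-values were adjusted by Benjamini-Hochberg over all of these genes. The pseudocount understates changes of low genes. Single members were also tested by two-sided exact permutation over libraries. On the recovered reads, edgeR 4.0.16 and DESeq2 1.42.0 were alternatives. The scripts were tested on simulated data. The other alternatives, each with its effect, are listed in the closing section. The 4 libraries were those whose neutrophil and monocyte read share exceeded 5 times the highest share of a Control ST library. Named genes were the 9 members, other complement genes that were called or had the 3 highest mean levels, and the 2 genes most like each member. One of the complement genes that this rule names is not reported here. The members and lists were chosen with earlier results of these data known. The smallest chi-square per degree of freedom between any 2 libraries was 36.9, so none was a copy of another. Transcript lengths came from GENCODE vM39 on GRCm39 and promoters from RefSeq.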

Additional observations from a re-analysis of the deposited data

Results flagged for a closer look

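Of the 18 groups of 4 libraries tested for a single far value, 3 held one. Chance gives about 1 in 20 for a single group, but these were 9 genes in the same 2 sets of libraries and are not independent. All 3 were the lowest value of 1 library, TASTPM K/BxN ST 1, and C1qb and C1qc moved together in all libraries (SD of their log2 ratio 0.062). C1qb was at 54090 normalized counts there and at 141662 to 149014 in the other 3 libraries of the group. C1qc was at 56379 against 143622 to 154620, and C3ar1 at 3887 against 11195 to 12573. The gap to the nearest library was 0.923, 0.888 and 0.841 of the group's range for C1qb, C1qc and C3ar1 and exceeded Dixon's critical value at 95% for 4 samples. This library also had the lowest share of reads on microglia markers of all 14, 1.55%, and a neutrophil and monocyte marker share of 2.29%, and their part in the low values was not tested.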

How the results depend on the processing

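No paired analysis was possible because the labels number the libraries 1 to 14 across the series and the groups share no number. The count of members called was 0 of 9 in each comparison under each alternative run. A fit to only the groups compared was run for the 4 comparisons between 2 groups, and the others for all 7 comparisons, namely TMM factors, library totals, a pseudocount of 10, no filter on low counts, a robust prior variance, edgeR, DESeq2, the neutrophil and monocyte score as covariate, the 4 libraries high in those reads left out, and each library left out in turn. Of 603 log2 fold changes recomputed under all of these but the last, 570 kept their sign and 33 did not, and of 882 with 1 library left out, 789 kept it and 93 did not. The cause of the sign changes was not tested. With the neutrophil and monocyte score as covariate, the log2 fold change took the opposite sign for C3ar1 (serum in WT, 0.00021), C3 (serum in TASTPM, -0.11), Itgam (serum in TASTPM, 0.23), C1qa (serum in TASTPM, 0.021), C4b (serum in TASTPM, -0.33), Itgam (averaged serum, 0.050), C1qc (interaction, 0.052), C1qc (genotype in Control ST, -0.017), C3ar1 (genotype in Control ST, -0.044), C3 (genotype in K/BxN ST, -0.13). Without the 4 libraries high in neutrophil and monocyte reads, the log2 fold change took the opposite sign for Itgb2 (serum in WT, -0.054), C3ar1 (serum in WT, 0.026), Itgam (serum in TASTPM, 0.24), C1qa (serum in TASTPM, 0.018), C5ar1 (serum in TASTPM, 0.011), Itgam (averaged serum, 0.052), Itgb2 (genotype in K/BxN ST, 0.10), C1qa (averaged genotype, 0.019). With TMM factors, the log2 fold change took the opposite sign for C1qb (interaction, -0.0076), C1qa (genotype in K/BxN ST, -0.0021), C1qc (genotype in K/BxN ST, -0.0024). With library totals, the log2 fold change took the opposite sign for C1qb (interaction, -0.033), C1qa (genotype in Control ST, 0.0073), Itgb2 (genotype in K/BxN ST, 0.0045), C1qa (averaged genotype, 0.013). With the edgeR quasi-likelihood test, the log2 fold change took the opposite sign for C1qc (interaction, 0.0090), C3 (genotype in K/BxN ST, -0.14), C1qa (averaged genotype, 0.021), C4b (averaged genotype, -0.45). With DESeq2, the log2 fold change took the opposite sign for C1qc (interaction, 0.019), C3 (genotype in K/BxN ST, -0.13), C1qa (averaged genotype, 0.018), C4b (averaged genotype, -0.45). With each library left out in turn, the values that changed sign for at least 1 library ran as follows, named by comparison. For Itgb2 the range was serum in WT -0.054 to 0.14, genotype in K/BxN ST -0.056 to 0.031. For Itgam the range was serum in TASTPM -0.22 to 0.12, genotype in K/BxN ST -0.29 to 0.052. For C5ar1 the range was serum in TASTPM -0.42 to 0.033, interaction -0.031 to 0.43. For C4b the range was averaged serum -0.88 to 0.089, genotype in Control ST -1.53 to 0.41, averaged genotype -0.40 to 0.59. For C1qc the range was interaction -0.24 to 0.31, genotype in Control ST -0.047 to 0.18, genotype in K/BxN ST -0.19 to 0.36, averaged genotype -0.071 to 0.20. For C3ar1 the range was interaction -0.48 to 0.084, genotype in Control ST -0.044 to 0.11, genotype in K/BxN ST -0.47 to 0.10, averaged genotype -0.23 to 0.056. For C1qa the range was interaction -0.15 to 0.42, genotype in Control ST -0.20 to 0.12, genotype in K/BxN ST -0.19 to 0.38, averaged genotype -0.11 to 0.17. For C1qb the range was interaction -0.18 to 0.36, genotype in Control ST -0.013 to 0.22, genotype in K/BxN ST -0.11 to 0.43, averaged genotype -0.020 to 0.25. For C3 the range was interaction -3.43 to 1.01, genotype in Control ST -0.87 to 3.57, genotype in K/BxN ST -1.98 to 2.11, averaged genotype -0.42 to 1.86. With 3 or 4 libraries a group, changes as small as those of C1q could not be told from the spread between libraries. With 0 to 2 reads in 6 libraries, C3 was near the limit of detection there.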

Other observations

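Among the complement genes that are not components or receptors described above, Cfp, Fcnb and Cd93 were chosen after their values were seen. Cfp, which encodes properdin, the stabiliser of the alternative pathway convertase, had normalized counts of 6642, 2229, 5805 and 2669 in TASTPM K/BxN ST 1, TASTPM K/BxN ST 2, WT K/BxN ST 1 and WT K/BxN ST 2, in that order, and of 0 to 239 in the other 10 libraries. Fcnb, a ficolin of the lectin pathway, was at 1517, 2817, 1163 and 69.1 in the same 4 libraries and did not exceed 2.18 in the others. Cd93 was at 592, 376, 733 and 500.4 there and did not exceed 6.36 elsewhere. Of these 4 libraries, Fcnb was lowest in WT K/BxN ST 2, which held few neutrophil reads. The part of neutrophils or monocytes in the values of Cfp, Fcnb and Cd93 was not tested. Neither Fcnb nor Cd93 had enough reads in enough libraries to be tested for a fold change. Cfp was tested and not called, with log2 fold changes for K/BxN ST of 3.49 (SE 3.02) in WT and 3.90 (SE 3.02) in TASTPM. Its average over genotypes was 3.69 (SE 2.13), with an unadjusted limma p of 0.104.

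The genes most like the other members by the SD of the log2 ratio over the 14 libraries were Ccdc93 (SD 0.18) and Lgmn (SD 0.18) for C3ar1, Ugcg (SD 0.26) and Dhrs7b (SD 0.28) for C5ar1, Pbxip1 (SD 0.16) and Sumf1 (SD 0.16) for Itgam, and Plod3 (SD 0.11) and Sptlc2 (SD 0.13) for Itgb2. Those of C4b were Mettl8 (SD 0.76) and Rps2-ps13 (SD 0.78).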
